A study of Mus musculus with 6 samples.

Results

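Complement and acute-phase genes were followed through the tumour stroma of 6 mice, in tumours of the colon sequenced well by well. The 9 genes considered were C3, C4b, Cfb, Cfd, Serping1, Saa3, Lcn2, Slpi and Hp. They were taken by gene name, without regard to their values, and 8 of the 9 had a row on every plate, out of 19069 genes listed on at least 1 plate. Cfd, which encodes complement factor D, was not analysed here. Each plate held sorted cells of 1 mouse with 384 wells, so the mouse was the replicate and a well was not. The 3 Zeb1Fib-Ctrl mice (mice 1, 3 and 4) were negative for the Col6a1Cre transgene and the 3 Zeb1Fib-deleted mice (mice 2, 5 and 6) were positive for it. Mice of both groups carried floxed Zeb1 alleles (Zeb1 fl/fl), were age-matched littermates, and had received azoxymethane (AOM) followed by cycles of dextran sulfate sodium (DSS) in the drinking water. The sample labels give the treatment as none, and the ages are not given in the sources used here. The Cre transgene is driven by the Col6a1 promoter, which is active in part of the mesenchymal cells of the gut, so fibroblasts with an intact gene can remain in the deleted group. By the flow cell code in the names of the deposited files, plate 6 came from another sequencing run than the other plates, and with 1 mouse in that run the run and the mouse cannot be told apart.

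Complement is a cascade of plasma proteins that marks targets for uptake and recruits leukocytes. C4 carries the classical and lectin routes, factor B (Cfb) carries the alternative route, both end in cleavage of C3, and C1 inhibitor (Serping1) restrains the first proteases. The liver makes most of these proteins, but fibroblasts and epithelia make them locally, and acute-phase genes such as Saa3 (a serum amyloid A), Hp (haptoglobin, which binds free haemoglobin) and Lcn2 (lipocalin 2, which sequesters bacterial siderophores) are induced by inflammatory cytokines in several tissues. Slpi encodes a secreted inhibitor of neutrophil elastase and other serine proteases. Neutrophils carry Lcn2, haptoglobin and Slpi in their granules.

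Of 2304 wells, 1233 passed the limits of 100 to 6000 detected genes and under 10% mitochondrial transcripts. The 6 mice kept 109 to 298 wells each, with 667892 to 3141934 transcripts per mouse and a median of 4925 transcripts per well. Marker genes that include none of the members placed 559 wells as fibroblast, 84 as pericyte-like, 424 as neutrophil and 41 as epithelial, and left 65 with markers of several types and 46 with no class. Within the fibroblasts, 195 wells were iCAF-like (inflammatory cancer-associated fibroblasts, by markers such as Sfrp4, Cilp and Ptx3), 112 were telocyte-like (markers such as Wnt5a, Mmp10 and Il1rl1), 152 were Cxcl13/Grem1 fibroblasts and 21, all of mouse 5, were Myoc/Angptl7 fibroblasts. The labels name the sorted cells as CAFs, gated as negative for EPCAM, CD45 and CD31, yet neutrophil wells made up 34.4% of those kept. Their 12 neutrophil markers summed to 113242 CPM (transcripts per 1000000 transcripts of all genes in a set of wells) in the neutrophil wells and to 156 in the fibroblast wells. Subtypes are ranges of a marker count: 81 fibroblast wells sat exactly at the cut for iCAF-like and 56 lay 1 marker below it. Fibroblast wells were deep (median 11524 transcripts) and neutrophil wells shallow (1476), so levels are given in CPM for each class in a mouse, and shares of wells with a transcript are given also after thinning every well to 500 barcodes.

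In the fibroblast wells the targeted gene, Zeb1, stood at 111, 111 and 93.6 CPM in mice 1, 3 and 4, and at 58.3, 70.4 and 65.7 CPM in mice 2, 5 and 6. The groups did not overlap, with 27 Zeb1 transcripts in mouse 3 and 16 in mouse 6. The share of all genes that separate the groups in this way is not given here. Of the 8751 genes tested between genotypes in these wells, none was called. The deleted part of Zeb1 is not given in the sources used here, and a tag from the 3′ end of the transcript can lie outside it.

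The genes lie on 4 chromosomes, all on the minus strand of GRCm38. C3 (chr17:57203970-57228136), C4b (chr17:34728380-34743882) and Cfb (chr17:34856374-34862518) lie on chromosome 17, Serping1 (chr2:84765387-84775444), Lcn2 (chr2:32384633-32388252) and Slpi (chr2:164354070-164389095) on chromosome 2, Saa3 (chr7:46711998-46715700) on chromosome 7 and Hp (chr8:109575128-109579172) on chromosome 8. The value of C4b is uncertain, since its near-identical neighbour C4a can share reads with it, and so is that of Cfb, which overlaps the protein-coding gene Gm20547 on the same strand. RefSeq promoter windows (GRCm38.p6, 250 bases before to 50 after the start) were found for C3, Saa3, Lcn2 and Slpi. They are shown because each of the 4 holds a single match, on either strand, to TTGCNNAA, a core of the C/EBP family's binding sequence, and C/EBP factors are known for inducing acute-phase genes. The match is in capitals.
C3 promoter, chr17:57228087-57228386, minus strand: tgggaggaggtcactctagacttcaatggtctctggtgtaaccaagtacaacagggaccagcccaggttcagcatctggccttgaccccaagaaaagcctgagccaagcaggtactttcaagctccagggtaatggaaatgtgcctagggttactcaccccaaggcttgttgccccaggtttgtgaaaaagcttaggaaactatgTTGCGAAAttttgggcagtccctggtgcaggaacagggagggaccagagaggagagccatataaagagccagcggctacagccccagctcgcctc
Saa3 promoter, chr7:46715627-46715926, minus strand: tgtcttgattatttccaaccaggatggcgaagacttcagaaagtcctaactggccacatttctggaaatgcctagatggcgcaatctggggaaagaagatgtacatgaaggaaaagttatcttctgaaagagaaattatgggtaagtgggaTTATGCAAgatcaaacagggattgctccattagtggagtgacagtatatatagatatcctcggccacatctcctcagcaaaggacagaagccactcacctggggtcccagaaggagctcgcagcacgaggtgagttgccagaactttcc
Lcn2 promoter, chr2:32387690-32387989, minus strand: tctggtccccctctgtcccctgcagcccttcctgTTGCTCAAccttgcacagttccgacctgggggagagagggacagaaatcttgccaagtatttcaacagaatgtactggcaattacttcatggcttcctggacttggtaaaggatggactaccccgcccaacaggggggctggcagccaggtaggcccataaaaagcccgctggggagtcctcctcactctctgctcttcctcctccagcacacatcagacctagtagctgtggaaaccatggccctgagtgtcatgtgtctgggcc
Slpi promoter, chr2:164356458-164356757, minus strand: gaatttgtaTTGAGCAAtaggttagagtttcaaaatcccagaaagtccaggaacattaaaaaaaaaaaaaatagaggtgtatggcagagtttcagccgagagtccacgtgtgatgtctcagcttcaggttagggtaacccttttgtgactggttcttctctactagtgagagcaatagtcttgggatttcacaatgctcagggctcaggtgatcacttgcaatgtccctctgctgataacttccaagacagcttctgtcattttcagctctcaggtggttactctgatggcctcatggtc
The matches begin 45 bases before the start in C3, 99 in Saa3, 216 in Lcn2 and 241 in Slpi. Of 32851 windows of this length in the mouse, 10.8% hold the same letters. TTCNNNGAA (a STAT-like sequence, in 8.30% of windows) and a kappaB sequence (in 4.51%) were searched on both strands and were in none of these 4 windows. These matches are a description of letters and were not tied to the levels that follow.

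The members divided between cell classes. C3, C4b and Cfb were highest in fibroblasts, with C3 and Cfb topmost in iCAF-like wells and C4b in Cxcl13/Grem1 wells. Serping1 ranged from 1636 to 2365 CPM over mice in pericyte-like wells and from 1677 to 2853 CPM in fibroblasts. Among the classes with 10 or more wells in a mouse, Lcn2, Slpi and Hp were highest in neutrophils. Saa3 was a fibroblast gene whose transcripts came from few wells, most of them telocyte-like.

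**Figure D1:**
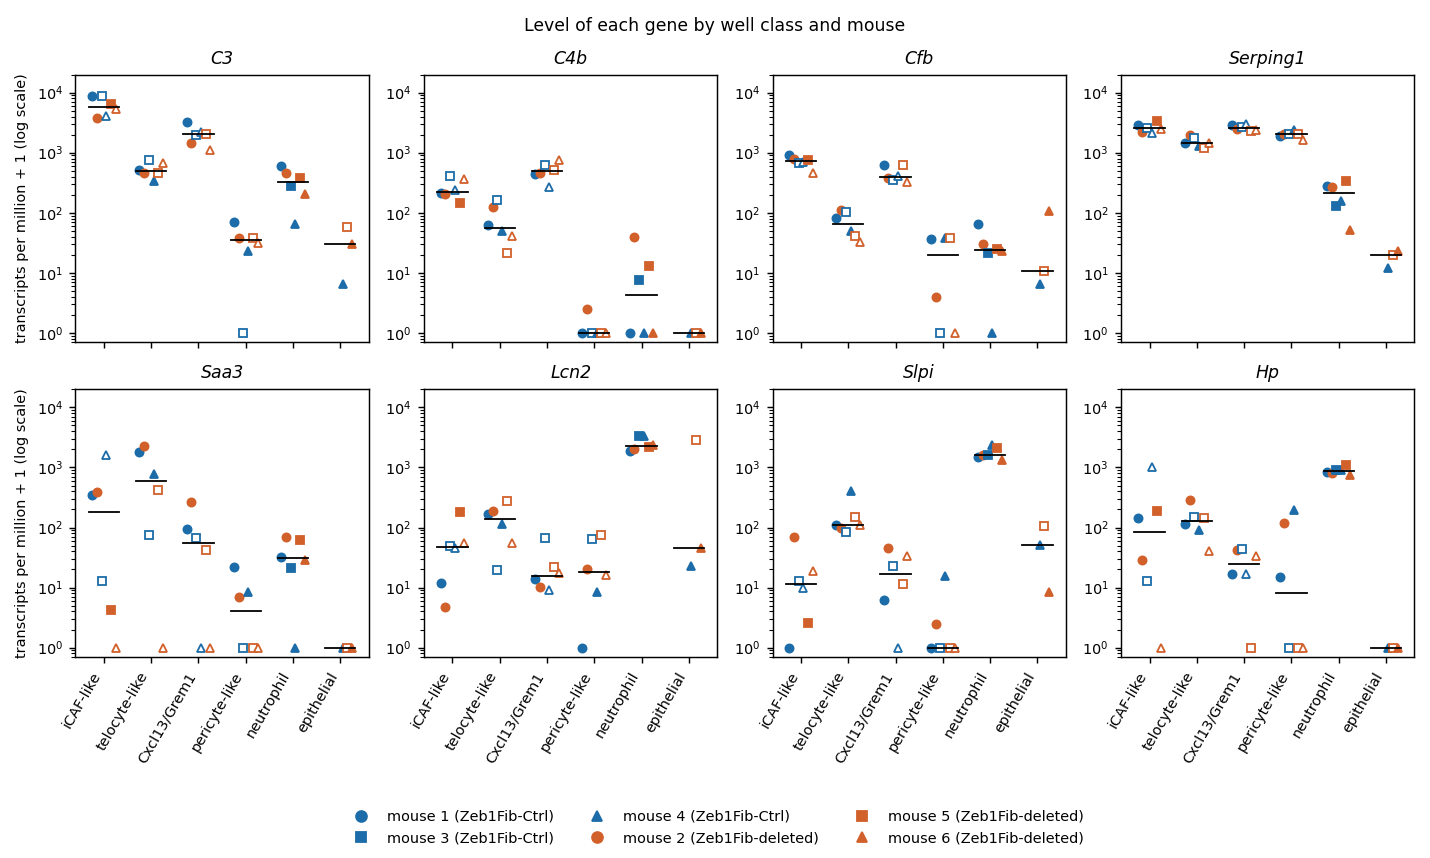
Level of each gene (CPM plus 1, log axis) in iCAF-like, telocyte-like, Cxcl13/Grem1, pericyte-like, neutrophil and epithelial wells, with 1 symbol per mouse. Filled symbols rest on 10 or more wells, open symbols on 4 to 9, and the black line is the median over mice. C3 falls from 8948 to 3732 CPM in iCAF-like wells to at most 70.0 CPM in pericyte-like wells, while the median of Lcn2, Slpi and Hp is highest in neutrophils.

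C3, the protein on which all complement routes converge, stood at 8948, 3732, 8830, 4121, 6422 and 5247 CPM in the iCAF-like wells of mice 1 to 6. In Cxcl13/Grem1 wells of the same mice it stood at 3259, 1424, 1943, 2213, 2073 and 1089 CPM. In telocyte-like wells it stood at 513, 460, 753, 340, 464 and 680 CPM. The 3 subtypes therefore did not overlap, although mice 3, 4 and 6 gave only 6, 7 and 4 iCAF-like wells. Neutrophil wells held 597, 456, 275, 63.6, 378 and 203 CPM, a range that overlaps that of the telocyte-like wells. Pericyte-like wells were lower, at 70.0, 37.7 and 21.9 CPM in mice 1, 2 and 4, the mice with at least 10 such wells, and epithelial wells held 5.55 and 29.7 CPM in mice 4 and 6. Thinned to equal depth, 83.1% of iCAF-like, 53.9% of Cxcl13/Grem1, 17.0% of telocyte-like, 13.9% of neutrophil and 4.76% of pericyte-like wells showed a C3 transcript. Before thinning these shares were 96.9%, 98.0%, 71.4%, 33.5% and 39.3%, so the order of the first pair and of the last pair depends on depth.

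Cfb, the protease subunit of the alternative C3 convertase, stood at 923, 794, 671, 704, 764 and 457 CPM in the iCAF-like wells of mice 1 to 6. Cxcl13/Grem1 wells of the same mice held 618, 385, 348, 414, 629 and 324 CPM. The ranges overlap between mice, but within a mouse the iCAF-like value was the higher in 6 of 6. Telocyte-like wells held 31.5 to 109 CPM, neutrophil wells 0 to 62.8 CPM, and the 14.0 transcripts that gave epithelial wells of mouse 6 their 104 CPM came from 1 well.

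C4b, the mouse C4 of the classical and lectin routes, had its top in the Cxcl13/Grem1 wells, at 443, 457, 632, 271, 515 and 747 CPM in mice 1 to 6. The iCAF-like wells held 213, 207, 407, 234, 146 and 365 CPM, and the telocyte-like wells 61.9, 126, 160, 48.5, 20.1 and 39.4 CPM. That order, Cxcl13/Grem1 over iCAF-like over telocyte-like, held within 6 of 6 mice, while the ranges of the first 2 overlapped between mice. Against all other fibroblast wells of the same mouse, the Cxcl13/Grem1 wells were 2.61-, 2.63-, 2.85- and 4.62-fold higher in mice 1, 2, 4 and 5, which had 7 to 75 such wells. This was described and not tested. Outside the fibroblasts C4b was rare: 1 transcript in 84 pericyte-like wells, 7 in 424 neutrophil wells, and 0 of 41 epithelial wells, which allows a share of wells with a transcript of up to 7.32% (3 counts of the 41) and sets no limit on wells that express the gene.

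Serping1, the inhibitor, varied little over the mesenchymal wells. Pericyte-like wells of mice 1, 2 and 4 held 1910, 2008 and 2365 CPM, and the fibroblast wells of those mice held 2676, 2261 and 1677 CPM. Pericytes were lower in mice 1 and 2 and higher in mouse 4. Among fibroblast subtypes the telocyte-like wells were lowest in 6 of 6 mice, with 1191 to 1939 CPM, beside 2139 to 3401 CPM in iCAF-like and 2310 to 2984 CPM in Cxcl13/Grem1 wells, and the last 2 ranges overlap. Neutrophil wells held 50.7 to 341 CPM and epithelial wells 11.1 and 22.3 CPM in mice 4 and 6. Of the 8 genes it was also the most evenly spread over wells: the 143 highest of 559 fibroblast wells were needed to hold 50% of its transcripts, against 63 for C3 and 8 for Saa3.

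These class differences were tested within mice with edgeR's quasi-likelihood test on transcripts summed per class and mouse, with Benjamini-Hochberg adjustment over all genes tested. Against pericyte-like wells (mice 1, 2 and 4), 6 of 8 members were higher in fibroblasts, where 9.61% of all 7881 genes tested were and 8.27% were lower (17.9% called in all). The log2 difference was 5.92 ± 0.33 (SE, adjusted p = 1.06e-09) for C3, 4.85 ± 0.50 (6.16e-07) for Cfb, 6.43 ± 0.42 (3.76e-09) for Saa3 and 2.18 ± 0.47 (0.00192) for Lcn2. C4b and Slpi also passed (adjusted p = 5.29e-09 and 1.29e-06), but with 1 and 3 pericyte transcripts in all the fold is loose: 250 (95% counting interval 44.9 to 9882) for C4b and 22.5 (7.71 to 109) for Slpi. Both passed the filter on low counts only through their fibroblast counts, so their direction is no support. Serping1 differed by 0.17 ± 0.25 on the log2 scale (adjusted p = 0.761) and Hp by 0.38 ± 0.32 (0.535). The sizes depended on the mice: without mouse 2, Cfb was 3.62, Saa3 5.52 and Lcn2 4.14, without mouse 4 Cfb was 5.68, and without mouse 1 Saa3 was 7.07 on the log2 scale, all still called, while Slpi could not be fitted without mouse 2.

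Against neutrophil wells (6 mice), 5 of 8 members were higher in fibroblasts and 3 were lower, beside 50.1% and 26.7% (76.7% in all) of the 3758 genes tested, so the split by itself is near that of all genes. The sizes were 3.09 ± 0.27 (adjusted p = 3.21e-12) for C3, 4.62 ± 0.48 (2.22e-10) for C4b, 3.74 ± 0.37 (5.60e-11) for Cfb and 3.56 ± 0.28 (2.52e-13) for Serping1 on the log2 scale, where the median of all genes was 0.78. Saa3 was higher by 2.11 ± 0.54 (adjusted p = 0.000800), a call that DESeq2 did not make (0.0701). Lcn2 was lower in fibroblasts, at -4.82 ± 0.32 (1.65e-15), as were Slpi, at -5.08 ± 0.35 (5.94e-15), and Hp, at -3.27 ± 0.30 (1.01e-11). With 1 mouse left out all 8 stayed called, while C4b moved to 5.60 without mouse 2, 4.02 without mouse 3 and 3.77 without mouse 6, Saa3 to 1.53, 1.55 and 1.34 without mouse 1, 2 or 4, and Slpi to -5.80 without mouse 4. The neutrophil wells held 2.69 to 11% of the fibroblast wells' summed level of 10 fibroblast markers, none of which was at 0. Their C3 was 5.10 to 26.8% and their Serping1 2.66 to 12% of the fibroblast level. No neutrophil well held more than 6 transcripts of either gene. The part that free or carried-over RNA has in the low neutrophil levels was not tested.

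Against epithelial wells (mice 4 and 6), 5 members passed the filter on low counts and all 5 were higher in fibroblasts, where 14.3% of the 4673 genes tested were and 10.2% were lower (24.5% called in all). The filter could be passed by fibroblast counts alone. C3, C4b and Serping1, with 5, 0 and 5 epithelial transcripts, could then hardly come out lower. The count of 5 of 5 is therefore a description and no support. C3 was higher by 6.77 ± 0.48 on the log2 scale (edgeR, adjusted p = 9.20e-05) and Serping1 by 7.0 ± 0.43 (6.70e-05). With 5 epithelial transcripts of each over both mice, these folds are loose. Their 95% counting intervals ran from 37.5 to 269 for C3 and from 46.8 to 336 for Serping1. C4b (adjusted p = 0.000714) had no epithelial transcript and was at least 17.6-fold higher, taking 3 counts over both mice as the floor. Cfb (2.44 ± 0.70, adjusted p = 0.0332) and Slpi (2.76 ± 0.50, 0.00382) were called too, but DESeq2 called only C3 and Serping1. Saa3, Lcn2 and Hp were filtered out.

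The iCAF-like wells were then set against all other fibroblast wells of the same mouse, in mice 1, 2 and 5 with at least 10 wells on each side. C3 stood at 8948, 3732 and 6422 CPM in the iCAF-like wells and at 2328, 1089 and 1302 CPM in the others. Cfb stood at 923, 794 and 764 CPM against 439, 287 and 288 CPM. Both genes were higher on the iCAF-like side in every one of these mice, with no overlap between the sides.

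**Figure D2:**
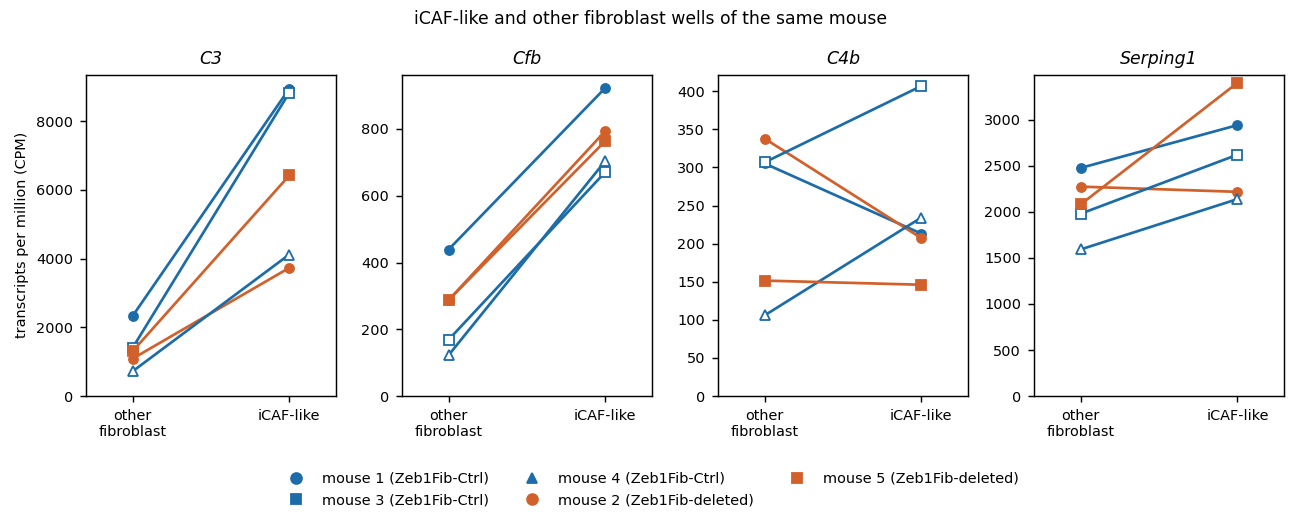
Level of C3, Cfb, C4b and Serping1 (CPM, linear axis) in all other fibroblast wells and in iCAF-like wells, joined by a line for each mouse. Open symbols mark mice 3 and 4, which had 6 and 7 iCAF-like wells and were not in the fit. From other fibroblast wells (left) to iCAF-like wells (right), the lines of C3 and Cfb rise in all 5 mice drawn. Mouse 6, with 4 iCAF-like wells, is not drawn.

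C3 was higher by 2.18 ± 0.15 on the log2 scale (SE, edgeR, adjusted p = 8.90e-05) and Cfb by 1.49 ± 0.15 (0.000380). These were 2 of 8 members, both higher, where 5.59% of the 8083 genes tested were higher and 4.81% lower (10.4% in all). Mice 3 and 4, outside the fit, had C3 at 6.31- and 5.74-fold and Cfb at 3.98- and 5.75-fold of the other fibroblasts. Of the remaining members, C4b differed by -0.28 ± 0.18 (adjusted p = 0.428), Serping1 by 0.48 ± 0.17 (0.107), Saa3 by -1.38 ± 0.45 (0.0872), Lcn2 by -1.33 ± 0.44 (0.0875) and Hp by 0.81 ± 0.60 (0.478). Slpi had an adjusted p of 0.294, with no transcript in the iCAF-like wells of mouse 1. These calls of the acute-phase genes depended on the mice: without mouse 5, Saa3 (-0.83, adjusted p = 0.0183) and Lcn2 (-2.78, 0.000244) were lower, and without mouse 2, Hp was higher (1.99, 0.00930) and Slpi lower (adjusted p = 0.0161). With mice of 5 or more wells admitted, Serping1 was higher (adjusted p = 0.0298) and Lcn2 lower (0.0101).

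Saa3, which encodes an acute-phase apolipoprotein made outside the liver, differed widely between mice. Fibroblast wells of mice 1 to 6 held 482, 823, 49.3, 769, 66.9 and 0 CPM. Telocyte-like wells held 1827, 2262, 75.1, 762, 415 and 0 CPM, beside 220, 313, 29.2, 782, 31.1 and 0 CPM in the other fibroblasts. The telocyte-like level was thus the higher in mice 1, 2, 3 and 5, level with the rest in mouse 4, and no Saa3 was seen in the 15 fibroblast wells of mouse 6. In mice 3 and 5 the telocyte-like level rested on 1 and 2 of 7 wells, with 8.01 and 41.2 transcripts. In mouse 2, 1 well held 696 of the 1371 telocyte-like transcripts. In mouse 4 the iCAF-like wells stood at 1621 CPM, but all 180 transcripts came from 1 of 7 wells. The level of the other fibroblasts in mouse 4 rests largely on that well.

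Slpi and Lcn2 also stood higher in telocyte-like wells of most mice. Slpi stood at 110, 97.6, 84.5, 399, 151 and 111 CPM in telocyte-like wells of mice 1 to 6 and at 3.84, 50.4, 14.6, 3.81, 4.14 and 25.7 CPM in the other fibroblasts, higher in 6 of 6 mice. These levels rest on few wells. In mouse 1, 1 telocyte-like well held 37.2 of the 39.2 transcripts. Mice 3, 5 and 6 had 7 telocyte-like wells each, of which 2, 3 and 2 held Slpi. Lcn2 was higher in the telocyte-like wells of 5 of 6 mice, with 166, 188, 18.8, 113, 272 and 55.2 CPM against 13.2, 7.60, 537, 34.3, 203 and 34.3 CPM. The exception, mouse 3, had 65.5 of its 75.5 fibroblast Lcn2 transcripts in 1 well. Single wells weighed on the telocyte-like side too. In mouse 2, 1 of 33 such wells held 93.0 Lcn2 transcripts, most of that class's total there. Hp was higher in the telocyte-like wells of 5 mice than in all other fibroblasts together. In mice 5 and 6, though, its 14.0 and 5 telocyte-like transcripts came from 1 of 7 wells each. Beside iCAF-like wells alone, telocyte-like wells held less Hp in mice 1 (113 against 141 CPM) and 5 (141 against 188 CPM). They held more in mice 2, 3 and 6. In mouse 4 Hp stood at 88.3 CPM in telocyte-like wells against 439 CPM in the other fibroblasts. There, 1 iCAF-like well held 99.2 Hp transcripts, and with it the iCAF-like wells of that mouse reached 1011 CPM. These telocyte-like differences were described and not tested.

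Behind the fibroblast levels of Saa3, Lcn2, Slpi and Hp were few wells. Of 559 fibroblast wells, 444 had no Saa3 transcript, and 43 with 10 or more held 95.4% of them. The top well, a telocyte-like well of mouse 2, held 696 Saa3 transcripts of 18182, along with 26.1 of Hp and 9.01 of Slpi. Of the 43 wells, 26 were telocyte-like, 9 were Cxcl13/Grem1 and 5 were iCAF-like, and 41 came from mice 1, 2 and 4.

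**Figure D3:**
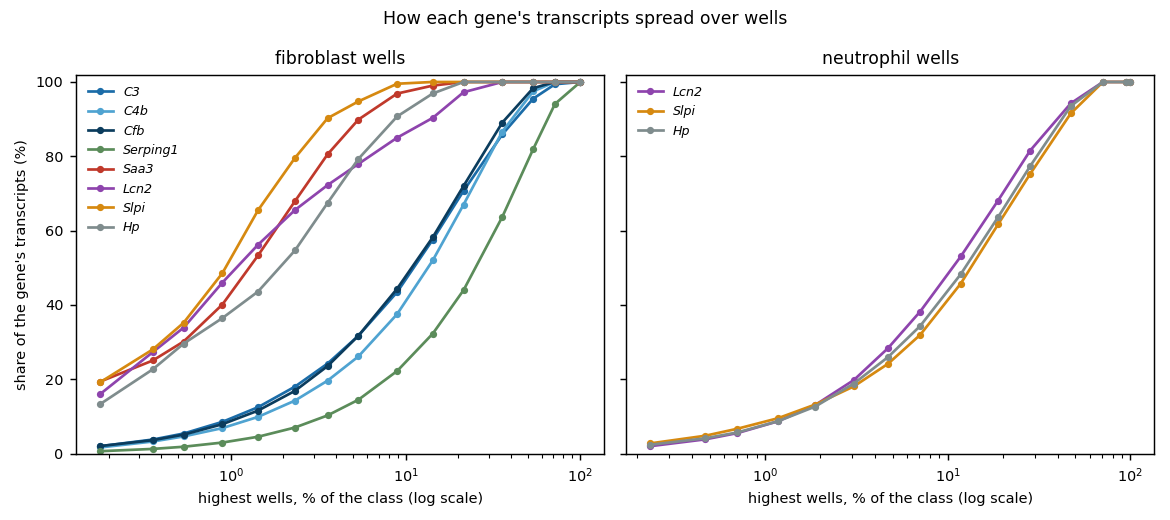
Share of each gene's transcripts (%) held by the highest wells of a class, against the share of wells taken (%, log axis), for 559 fibroblast wells (left) and 424 neutrophil wells (right). In fibroblasts the highest 8 wells (1.43%) hold 53.3% of Saa3 and 65.5% of Slpi but 12.5% of C3, while in neutrophils Lcn2, Slpi and Hp are spread alike.

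The same wells held more of the other acute-phase genes. Hp was seen in 55.8% of the 43 wells and in 14.2% of the 444 wells with no Saa3, Slpi in 32.6% and 5.86%, and Lcn2 in 37.2% and 25.5%. In the 72 wells with 1 to under 10 Saa3 transcripts, Hp was seen in 22.2% and Slpi in 16.7%. Lcn2 was seen there in 9.72%, at 23.6 CPM, which is lower than in the wells with no Saa3 (65.1 CPM). The 43 wells were also deeper, with a median of 17554 against 10770 transcripts. Scaled for depth, Hp stood at 496 against 56.0 CPM and Slpi at 186 against 43.8 CPM, while C3 stood at 1970 against 3625 CPM. These wells were picked by their Saa3, so the values are a description and the part of depth was not tested.

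Neutrophil wells carried Lcn2 at 1856, 2057, 3281, 3377, 2221 and 2392 CPM in mice 1 to 6. Slpi stood there at 1478, 1620, 1599, 2355, 2086 and 1313 CPM and Hp at 848, 805, 913, 891, 1085 and 749 CPM. In each of the 3 genes the lowest neutrophil value lay above the highest fibroblast value, which was 310 CPM for Lcn2, 254 for Slpi and 217 for Hp. The 3 levels spread little over mice, with 2531 ± 644 CPM (SD, n = 6) for Lcn2, 1742 ± 396 for Slpi and 882 ± 116 for Hp. After thinning, 50.7% of neutrophil wells showed Lcn2, 45.3% Slpi and 33.1% Hp, against 2.95%, 2.03% and 4.24% of fibroblast wells. Before thinning, which left out 22 neutrophil and 17 fibroblast wells that were too shallow, these shares were 68.2%, 68.9% and 56.8% against 24.3%, 9.30% and 18.4%, with the fibroblasts the deeper class.

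Epithelial wells held much Lcn2 in 1 mouse. Mouse 5 held 2846 CPM in 6 epithelial wells, of which 3 gave 90.9% of the transcripts, while mice 4 and 6 held 22.2 and 44.6 CPM in 20 and 12 wells. In pericyte-like wells of mice 1, 2 and 4 Hp stood at 14.0, 119 and 198 CPM, of which 78.7% over all 84 wells came from 3 wells. No Hp or Saa3 transcript was seen in the 41 epithelial wells.

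Clusters made without the members put most neutrophil wells in 2 groups. The group led by Retnlg, S100a8, S100a9 and Mmp8 (236 wells) held 3271 CPM of Lcn2 and the group led by Cxcr4 and Hdc (201 wells) held 1182 CPM, with the first higher in 6 of 6 mice. Telocyte-like wells also fell into 2 clusters. That led by Mmp13, Il1rl1, Mmp10 and Inhba (61 wells) held 1972 CPM of Saa3 and 328 CPM of Slpi, beside 682 and 17.3 CPM in that led by Agt and Adamdec1 (90 wells), and was the higher in both genes in mice 1, 2 and 4. For C3, the iCAF-like cluster led by Ptx3 and Dpp4 (45 wells) held 8659 CPM, that led by Cilp and Col8a1 (129 wells) 6892 CPM and that led by Angptl7 (41 wells, 97.6% of them of mouse 5) 2507 CPM. Cells of a cluster share mice, so these values were not tested.

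The 4 complement genes were found together in single wells. All 4 were seen in 125 of 152 Cxcl13/Grem1 wells, 112 of 195 iCAF-like wells and 28 of 112 telocyte-like wells, and in none of 424 neutrophil wells. Lcn2, Slpi and Hp were seen together in 153 of the 424 neutrophil wells, in 7 telocyte-like, 2 iCAF-like and 0 Cxcl13/Grem1 wells. The medians of depth were 13918, 10926, 15100 and 1476 transcripts for Cxcl13/Grem1, iCAF-like, telocyte-like and neutrophil wells. Of the 3 fibroblast subtypes, the telocyte-like wells were thus the deepest and had the lowest share with all 4 complement genes, which was not tested.

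Across 23 sums of a class in a mouse, the genes whose log level went most closely with each member were found among 3573 genes. For C3 they were Has1, a hyaluronan synthase (r = 0.945), and Cd34 (0.926), both among the iCAF-like markers. For C4b they were Fbln1 (0.955) and Tnxb (0.948), for Serping1 the collagen gene Col1a2 (0.958), like Fbln1 a fibroblast marker of the gate, and Axl (0.953), and for Cfb Mfap4 (0.781). Saa3 went most closely with Acsl4 (0.834), Lcn2 with Arg2 (0.894), Slpi with Prdx5 (0.909) and Hp with Dmxl2 (0.890). Among the members, C3 went with C4b (0.837) and Cfb (0.755), Lcn2 with Slpi (0.784), and Serping1 against Slpi (-0.503). The sums share mice, libraries and class depth, so the correlations are a description.

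Of 33 further complement genes, 28 had a row and 17 had at least 20 transcripts in the kept wells. Between fibroblast and pericyte-like wells, 9 were tested, of which 3 were higher in fibroblasts and 1 lower (9.61% and 8.27% of all genes tested), and the median log2 difference was 1.24. Cd55, a membrane inhibitor of the C3 convertases, was higher (530 CPM over all fibroblast wells against 3.69 CPM over all pericyte-like wells, edgeR adjusted p = 2.24e-09). So were Cd59a, which blocks the membrane attack complex (log2 difference 2.21 ± 0.39, 0.000293), and the classical-route protease gene C1ra (2.43 ± 0.28, 2.19e-06). Vtn, encoding vitronectin, was higher in pericytes (-5.32 ± 0.44, 5.17e-08). Between fibroblast and neutrophil wells 4 of 9 were higher in fibroblasts and 4 lower, where 50.1% of all genes tested were higher and 26.7% lower. The lower ones were the receptor genes C5ar1, Itgam and Itgax and the properdin gene Cfp, with Itgam at 0.887 CPM in fibroblasts and 539 CPM in neutrophils, while C1ra was higher by a log2 difference of 5.46 ± 0.44 (adjusted p = 4.82e-13).

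In the iCAF-like wells, 2 of 9 of these complement genes differed from other fibroblasts, where 10.4% of all genes tested did (5.59% higher and 4.81% lower). Cd55 was higher by 1.27 ± 0.19 (edgeR, adjusted p = 0.00184) and Cd59a was lower, at -2.43 ± 0.27 (0.000527). Of 6 further acute-phase genes tested there, Mt1 and Mt2, which encode metallothioneins, were higher (0.72 ± 0.19, adjusted p = 0.0371, and 1.1 ± 0.19, 0.00511), and Cp (ceruloplasmin), Trf (transferrin) and Serpina3g were lower, at -1.56 to -2.18. Of 12 regulators and cytokine receptors, Lifr (-1.88 ± 0.25, 0.00116) and Il1r1 (-1.1 ± 0.21, 0.00709) were lower, and Nfkbiz, Cebpb, Cebpd, Stat3 and Osmr did not pass. The median log2 differences of the 3 lists were 0.15, -0.73 and 0.01.

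Whether deletion of Zeb1 in fibroblasts moved these genes was asked in fibroblast wells, in neutrophil wells and in all kept wells of each mouse. In fibroblast wells C3 stood at 5164, 3951 and 1246 CPM in the Zeb1Fib-Ctrl mice and at 1700, 4296 and 1813 CPM in the Zeb1Fib-deleted mice. Serping1 stood at 2676, 2200 and 1677 CPM against 2261, 2853 and 1904 CPM. Saa3 stood at 482, 49.3 and 769 CPM against 823, 66.9 and 0 CPM. The groups overlapped for all 8 members.

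**Figure D4:**
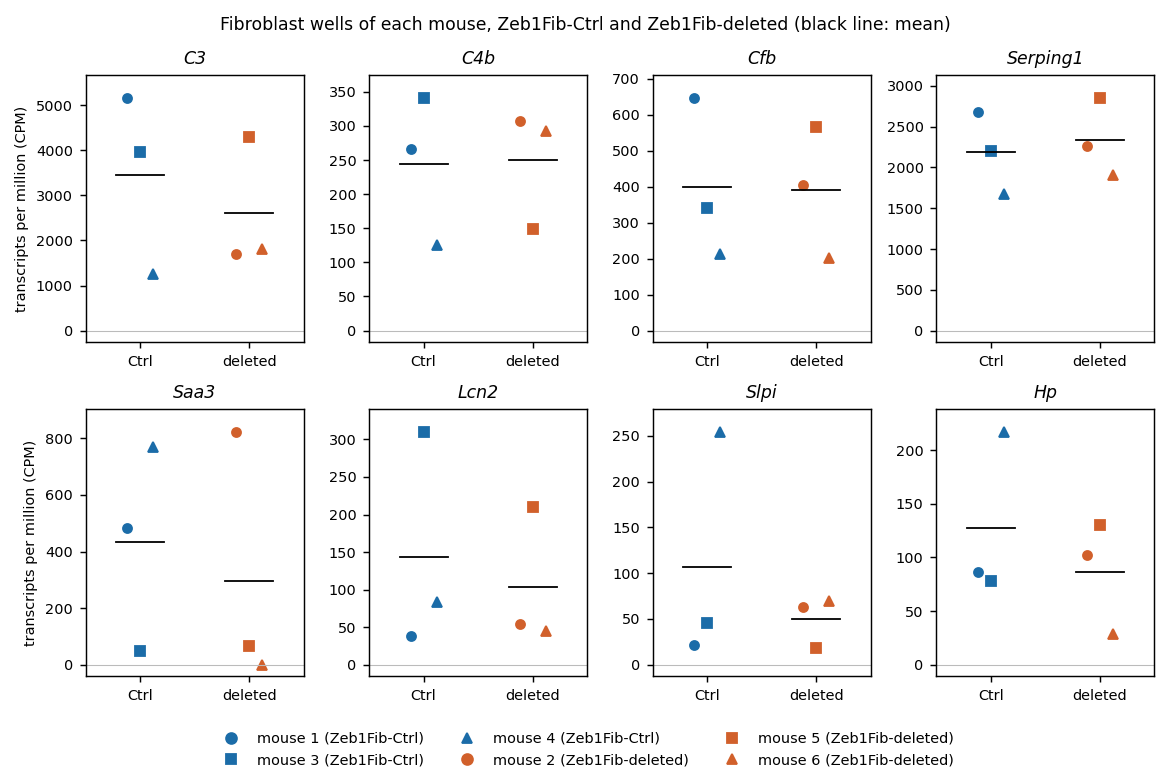
Level of each gene (CPM, linear axis) in the fibroblast wells of the 3 Zeb1Fib-Ctrl and 3 Zeb1Fib-deleted mice, with 1 symbol per mouse and the group mean as a black line. The symbols of the 2 groups overlap in all 8 panels.

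C3 averaged 3454 ± 2006 CPM (SD, n = 3) in control and 2603 ± 1468 in deleted mice, a log2 difference of -0.39 ± 0.57 (SE, edgeR, adjusted p = 0.999966). The differences were 0.040 ± 0.41 for C4b, -0.012 ± 0.50 for Cfb, 0.12 ± 0.29 for Serping1, -0.47 ± 1.27 for Saa3, -0.23 ± 0.81 for Lcn2, -1.11 ± 0.84 for Slpi and -0.40 ± 0.50 for Hp. None of the 8 members was called, and none of the 8751 genes tested was (0%), with 126 genes and 0 members at an unadjusted p under 0.05 and 2 genes and 0 members called by DESeq2. The exact two-sided permutation test over mice gave p from 0.6 to 1, and with 3 mice against 3 it cannot go below 0.1. With the iCAF-like wells left out, an alternative chosen after seeing the data, no member was called either. The neutrophil markers in fibroblast wells summed to 110 to 497 CPM in control and 121 to 251 CPM in deleted mice. The highest, mouse 3, also had the highest fibroblast Lcn2. Most of that Lcn2 came from a single well, and the part of neutrophil RNA in it was not tested.

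In neutrophil wells, 5 members passed the filter on low counts and none was called, as was none of 1328 genes (0%), with 54 genes and 0 members at an unadjusted p under 0.05 and 0 called by DESeq2. Lcn2 averaged 2838 ± 852 CPM in control and 2223 ± 167 CPM in deleted mice (SD, n = 3), a log2 difference of -0.37 ± 0.24. Over all kept wells none of the 8 members and none of 10424 genes was called (0%), with 73 genes and 0 members at an unadjusted p under 0.05 and 1 gene called by DESeq2. The plates differed in the wells they held: Lcn2 was highest in mouse 3 (1627 CPM), where 186 of 221 wells were neutrophil, and C3 in mouse 1 (4638 CPM), where 180 of 226 were fibroblast. The part of this make-up in the levels was not tested. In such sums, fewer cells of a type and less RNA per cell cannot be told apart.

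The iCAF-like difference was also compared between genotypes, with 1 Zeb1Fib-Ctrl mouse (mouse 1) and 2 Zeb1Fib-deleted mice (2 and 5). C3 was 3.84-fold higher in the iCAF-like wells of mouse 1 and 3.43- and 4.93-fold higher in mice 2 and 5. Cfb was 2.1-fold higher in mouse 1 and 2.76- and 2.66-fold higher in mice 2 and 5. The difference of these differences was -0.021 ± 0.30 on the log2 scale for C3 and 0.25 ± 0.36 for Cfb (edgeR, adjusted p = 1 for each). None of the 8 members was called, beside 0.0206% of 9694 genes, with 2 members at an unadjusted p under 0.05 (Saa3 and Slpi) and none called by DESeq2. The control side is a single mouse, assumed to vary like the deleted mice, so that the lack of calls says little about whether the genotypes differ.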

How the data were processed

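Cells gated as negative for EPCAM, CD45 and CD31 were index-sorted into 384-well plates and sequenced by CEL-Seq2 with 3′ tags. The authors aligned reads with BWA to the Ensembl transcriptome of GRCm38, and the submitters' processing notes also name Cell Ranger 2.1.1. The authors deposited whole barcode counts per gene and well. They also deposited each estimated count of transcripts, the expected count of molecules after correction for different molecules that carry the same barcode, not scaled by gene length. Fibroblast, pericyte, neutrophil and epithelial wells were chosen by marker lists, with 10 or more wells of a class per mouse. Sums of the estimated counts over a class in a mouse were rounded and entered into edgeR 4.0.16 (quasi-likelihood F test after TMM scaling and filterByExpr, Benjamini-Hochberg at 0.05), with the mouse as a block for class contrasts. A gene can pass filterByExpr through the counts of 1 class alone. Where the other class held next to none, the gene could hardly come out lower in the first. DESeq2 1.42.0 and the other settings of the closing section served as alternatives. The code was tested on simulated data. Members, markers and lists were chosen with earlier results of these data known. Genes named were the members, genes from the 3 closest in profile to each (Pearson r of log2 CPM plus 1), and genes of the related lists with at least 20 transcripts. Intervals cover counting error only, and no doublet caller was run, so wells with markers of several types were left out. The values without mouse 6 are those within 1 sequencing run.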

Additional observations from a re-analysis of the deposited data

Results flagged for a closer look

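The wells outside the limits also held the members. The main comparisons left them out, and those with 10 to 30% mitochondrial transcripts entered only the alternative setting that admits them. In 740 wells with 10 to 30% mitochondrial transcripts, C3 stood at 925 CPM, C4b at 101, Cfb at 157, Serping1 at 1132, Saa3 at 191, Lcn2 at 547, Slpi at 113 and Hp at 92.5 CPM, above what a count of 0 allows. Of these wells 278 carried fibroblast markers, and in them C3 stood at 1763 CPM and Serping1 at 1939 CPM. In 82 wells with under 100 genes, C3 stood at 464 CPM and Serping1 at 696 CPM. These rest on 4 and 6 transcripts, near the 348 CPM that 3 counts would give.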

How the results depend on the processing

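No paired analysis was possible because the control and the deleted mice share no replicate number. Over the members' log2 differences and the settings that kept all mice, 363 values kept their direction and their side of the threshold, 20 reversed, 12 passed it newly and 9 lost it. Neutrophil wells were shallow (median 1476 transcripts), epithelial wells were few (41, with 10 or more in mice 4 and 6), and the genotype comparison has 3 mice a group.

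With DESeq2, the genotype comparison called 1 gene in all kept wells and 2 in fibroblasts, the iCAF-like contrast 520 genes, the epithelial contrast 432 genes and 2 members, and the contrast by genotype 0 genes. With no filter on low counts, 6 genes were called between genotypes in neutrophils, 1459 genes and 7 members for iCAF-like wells, 7023 against neutrophils, 1720 against epithelium, and 21 genes and 1 member (Slpi) by genotype. With 5 wells admitted, 454 genes and 3 members were called against epithelium and 4 members for iCAF-like wells, and with up to 30% mitochondrial transcripts 4 members. The contrast by genotype called 0 genes also with barcode counts, mt- genes alone, 30% mitochondrial, clusters and 5 wells.

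Between genotypes in fibroblasts, log2 values changed sign when mt- genes alone counted as mitochondrial (C4b -0.17, Lcn2 0.79, Hp 0.42), with 30% mitochondrial (C4b -0.16, Saa3 0.021, Lcn2 0.81, Hp 0.43), with clusters in place of the marker gate (Cfb 0.026) and with iCAF-like wells left out (Hp 0.23), and in neutrophils with no filter (Hp 0.027). C4b in iCAF-like wells became 0.11 with 30% mitochondrial and 0.083 with 5 wells, neither passing the test, but passed it at -0.77 (adjusted p = 0.0242) with clusters. By genotype the iCAF-like difference became 0.0016 for C3 and -0.092 for Cfb with clusters, 0.022 for C4b, 0.024 for Serping1 and 0.18 for Saa3 with mt- genes alone, -0.26 for Cfb and -0.18 for Lcn2 with 30% mitochondrial, and -0.37 for Cfb with 5 wells. None of the values that changed sign passed the test, and the cause was not tested.

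Leaving out each mouse in turn gave log2 genotype differences in all kept wells of C3 -1.34 to 0.28, C4b -0.74 to 0.24, Cfb -0.60 to 0.85, Serping1 -0.29 to 0.39, Saa3 -3.45 to 0.12, Lcn2 -1.21 to 1.74, Slpi -1.81 to 0.52 and Hp -1.17 to 0.26. In fibroblasts they were C3 -1.01 to 0.070, C4b -0.30 to 0.31, Cfb -0.41 to 0.60, Serping1 -0.085 to 0.34, Saa3 -3.35 to 0.11, Lcn2 -1.29 to 0.93, Slpi -1.65 to 0.73 and Hp -0.75 to 0.16, and in neutrophils C3 -0.21 to 0.64, Serping1 -0.21 to 0.80, Slpi -0.31 to 0.099 and Hp -0.20 to 0.043. The ratios of mean CPM, deleted over control, ran in all kept wells from C3 0.426 to 1.38, C4b 0.661 to 1.31, Cfb 0.704 to 1.92, Serping1 0.854 to 1.38, Saa3 0.0878 to 1.06, Lcn2 0.528 to 3.24, Slpi 0.33 to 1.37 and Hp 0.513 to 1.16, and in fibroblasts from C3 0.509 to 1.002, C4b 0.822 to 1.27, Cfb 0.757 to 1.41, Serping1 0.953 to 1.21, Saa3 0.0771 to 1.12, Lcn2 0.347 to 1.69, Slpi 0.335 to 1.51 and Hp 0.514 to 1.06. Serping1 against pericytes ran from -0.083 to 0.48. Genes called numbered 0 to 4 between genotypes in neutrophils (4 without mouse 2, 1 without mouse 1) and 189 to 1093 for iCAF-like wells (189 without mouse 1, 386 without mouse 2), where 2 to 4 members were called (4 without mouse 2 or mouse 5). C3 and Cfb in iCAF-like wells stayed called without any single mouse, at 2.05 to 2.32 and 1.43 to 1.56.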
